A study of Mus musculus with 2197 samples.

Results

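The droplet leukocytes described here are cells of the whole mouse pancreas at E14.5 (embryonic day) that carried the RNA of 2 signalling adaptors of blood cells. A barcode was a member when it had at least 1000 genes, under 10% mitochondrial counts, at least 2 unique molecular identifiers (UMIs, the tags that mark single captured RNA molecules) of Tyrobp, at least 2 of Fcer1g, and 0 of the epithelial gene Epcam and the endothelial gene Pecam1. The rule gave 91 of 3406 kept barcodes in library 1 and 165 of 6764 in library 2, which is 256 of 10170 in all. These shares were 2.67% (95% exact Clopper-Pearson interval 2.16 to 3.27) and 2.44% (2.09 to 2.84). Intervals on shares cover counting error only.

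Both libraries came from digested, filtered and unsorted pancreas run on the 10x Genomics Single Cell 3′ v2 system, which counts the 3′ ends of transcripts. They form 1 group, and the labels give no strain, sex, number of embryos or treatment and do not say whether the libraries came from separate animals. The same series holds Smart-seq2 cells, sequenced one by one from full-length cDNA without UMIs, from 3 reporter sorts at the same age, which are used at the end. Those sorts are Ngn3-GFPlow and Ngn3-GFPhigh, which mark cells by a reporter at the Neurog3 locus of endocrine precursors, and Pdx1-Cre;Rosa-RFP+, which marks descendants of cells with the pancreatic factor Pdx1. Members were chosen by measured UMIs, so what follows describes the members without a test between groups.

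Tyrobp (DAP12, ENSMUSG00000030579) and Fcer1g (the Fc receptor gamma chain, ENSMUSG00000058715) are small membrane adaptors with an immunoreceptor tyrosine-based activation motif (ITAM). They pair with receptors that lack signalling parts of their own, and the kinase Syk passes the signal on. Macrophages, monocytes, granulocytes, mast cells and natural killer cells are known to use one or both. In the embryo, macrophages settle in tissues early, clear dead cells, and depend on the growth factor receptor Csf1r, while monocytes and granulocytes arrive by blood.

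Many myeloid genes are known targets of the factor PU.1, encoded by Spi1, whose site has the core GAGGAA. Read from the other strand, the same core is TTCCTC. In the RefSeq promoter windows of 300 bases (250 before to 50 after the start, build GRCm38.p6), that core stood on either strand in 14 of 24 promoters (58.3%) of the 25 genes with the largest fold in members, 20 of which had an entry. It stood in 256 of 623 promoters (41.1%) of all genes at least 4-fold higher, in 295 of 1230 (24%) of those at least 4-fold lower, and in 9289 of 32851 (28.3%) of all promoters. A match is a description of letters and not a bound site. The sequences are shown because these genes are among those that most set the members apart. They are on the gene's own strand and end at the base before the start, for the complement genes C1qb (chr4:136886201-136886450, minus strand) and C1qc (chr4:136892915-136893164, minus strand), the receptor gene Trem2 (chr17:48346151-48346400, plus strand), the chemokine gene Pf4 (chr5:90772185-90772434, plus strand), and the rule gene Fcer1g (chr1:171234350-171234599, minus strand). Capitals mark the core.
C1qb: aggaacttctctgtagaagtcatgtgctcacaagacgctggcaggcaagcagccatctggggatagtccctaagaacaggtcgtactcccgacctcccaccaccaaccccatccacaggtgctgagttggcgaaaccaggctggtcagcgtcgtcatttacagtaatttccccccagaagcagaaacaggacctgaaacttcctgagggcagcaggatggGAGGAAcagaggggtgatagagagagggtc
C1qc: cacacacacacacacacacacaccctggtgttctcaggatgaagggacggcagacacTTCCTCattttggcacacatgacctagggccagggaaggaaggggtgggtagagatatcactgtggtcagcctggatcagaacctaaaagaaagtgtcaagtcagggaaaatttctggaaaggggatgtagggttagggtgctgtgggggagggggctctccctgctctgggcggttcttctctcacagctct
Trem2: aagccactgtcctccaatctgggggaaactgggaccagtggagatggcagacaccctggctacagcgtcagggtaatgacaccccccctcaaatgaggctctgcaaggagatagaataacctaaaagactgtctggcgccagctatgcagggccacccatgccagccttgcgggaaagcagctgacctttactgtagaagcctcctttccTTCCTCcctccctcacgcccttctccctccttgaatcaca
Pf4: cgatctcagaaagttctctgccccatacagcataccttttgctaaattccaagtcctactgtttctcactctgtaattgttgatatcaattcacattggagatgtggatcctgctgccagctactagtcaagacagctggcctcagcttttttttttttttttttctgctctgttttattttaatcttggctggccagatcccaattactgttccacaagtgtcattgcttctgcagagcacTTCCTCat
Fcer1g: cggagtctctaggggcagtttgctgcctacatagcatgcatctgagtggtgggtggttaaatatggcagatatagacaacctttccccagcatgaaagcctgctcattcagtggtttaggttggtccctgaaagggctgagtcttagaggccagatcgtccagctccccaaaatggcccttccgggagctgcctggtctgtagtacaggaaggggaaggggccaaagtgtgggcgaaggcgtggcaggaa
The core starts 30 bases before the RefSeq start of C1qb on the gene's strand. On the other strand it starts 193, 40 and 8 bases before those of C1qc, Trem2 and Pf4. The GENCODE positions given below put the starts of C1qc and Fcer1g within the stretches shown, so these distances hold for RefSeq starts alone. The stretch shown for Fcer1g holds no such letters, which says nothing about the factor there.

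Tyrobp lies on chromosome 7 (30413760 to 30417585, plus strand) and Fcer1g on chromosome 1 (171229572 to 171234365, minus strand; protein-coding genes in GENCODE vM21, GRCm38). Members of library 1 held 2 to 100 UMIs of Tyrobp (median 39) and 2 to 121 of Fcer1g (median 43). In library 2 they held 2 to 31 (median 12) and 2 to 47 (median 17). Cells near the limit were few. With a rule gene at exactly 2 UMIs there were 2 and 7 members, and with one at 1 UMI there were 3 and 7 barcodes just outside. Csf1r was seen in 0 and 2 of those just inside and in 0 of those just outside. The demand for 0 Epcam and Pecam1 left out 19 and 20 further barcodes, of which 15 and 10 had a single Pecam1 UMI and no Epcam.

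Depth differed between the libraries. The median member had 10007 UMIs and 2385 genes in library 1 and 5500 UMIs and 1960 genes in library 2, and the other kept barcodes had medians of 9201 and 4966 UMIs. The shallowest member held 6314 and 3075 UMIs. Summed over members the libraries were of nearly equal depth, at 1012111 and 1013971 UMIs, so a gene's sum has a like counting error in both. The libraries shared 37 barcode sequences, none of them of a member in both. Levels below are CPM, the UMIs of a gene summed over a set of cells, as a share of all UMIs of that set on the usual CPM scale, and folds are ratios of CPM + 1 between the members and all other kept barcodes of the library.

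The label was checked against genes that leukocytes share. Ptprc, the pan-leukocyte phosphatase CD45 (chromosome 1, 138062861 to 138175708, minus strand), had a UMI in 52 of 91 members (57.1%) of library 1 and 74 of 165 (44.8%) of library 2, at 77.1 and 103 CPM against 0.646 and 0.713 CPM in the other barcodes. Csf1r, the receptor of the macrophage growth factors, had one in 81 (89.0%) and 145 (87.9%), at 537 CPM (exact Poisson interval 492 to 584) and 682 CPM (633 to 735), against 2.67 and 2.64 CPM. The actin-binding gene Coro1a and the small GTPase gene Rac2 were found in 97.8% and 97.8% of the members of library 1 and in 90.3% and 98.8% of those of library 2. Of the 15321 genes with at least 10 UMIs over all kept barcodes in each library, 663 (4.33%) were at least 4-fold higher in members in both libraries and 1321 (8.62%) at least 4-fold lower, with median log2 folds of -0.56 and -0.52. All 15 pan-leukocyte genes were among the higher ones, with medians of 5.64 and 5.98. The rule used this contrast. A gene could also pass the filter through the members' own UMIs, as Cd163 did (11.9 and 11.8 CPM in members, 0.0223 and 0 elsewhere). Nothing is read from these counts or from the like counts of listed genes below.

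Macrophage genes filled most of the members. Of 22 macrophage markers, 21 passed the filter on low counts. Of these 19 were at least 4-fold higher in both libraries, against 4.33% of all genes that passed. The median log2 folds of the markers were 7.02 and 7.17. The median member carried 16 of the 22 in library 1 and 15 in library 2, and the highest 20 in each. The counts per cell fell into a broad upper group and a small lower one. At least 10 markers were found in 79 members of library 1 (86.8%, 78.1 to 93.0) and 134 of library 2 (81.2%, 74.4 to 86.9). Between 3 and 9 were found in 3 and 14 members, and 0 to 2 in 9 and 17.

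**Figure D1:**
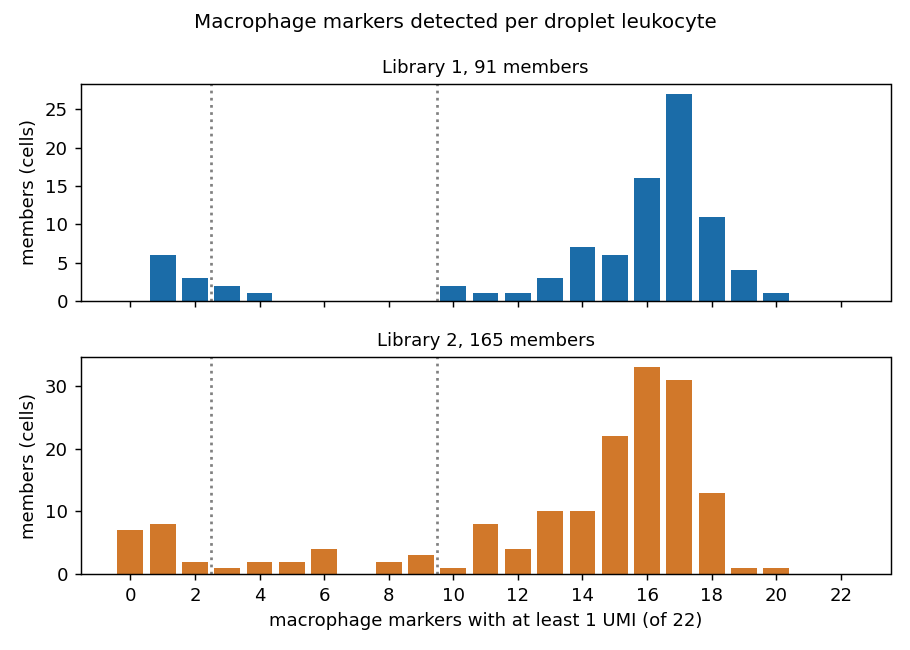
Number of macrophage markers (of 22) with at least 1 UMI per member, as counts of cells, library 1 above and library 2 below; dotted lines separate 0 to 2, 3 to 9 and 10 or more. In both libraries most members sit at 13 or more, and library 1 has none between 5 and 9.

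At least 3 of the markers were found in 82 (90.1%) and 148 members (89.7%), and in 85.7% and 86.7% after each cell was thinned to 2000 UMIs. In the comparison classes the thinned share was 0 of 517 and 0 of 1118 epithelial barcodes (Epcam at 2 or more UMIs), 0 of 1949 and 0 of 3583 mesenchymal ones (Col1a1 and Col3a1 at 2 or more), and 0 of 58 and 2 of 193 endothelial ones (Pecam1 and Cdh5 at 2 or more), all without Tyrobp and Fcer1g. Unthinned it was 3.87% and 2.95% of epithelial barcodes, whose medians were 21985 and 13972 UMIs.

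The 3 chains of the complement starter C1q, which tags dying cells for uptake, come from neighbouring genes on chromosome 4 (C1qa 136895917 to 136898803, C1qb 136880129 to 136886187, C1qc 136889804 to 136893065, all minus strand). C1qb, itself among the markers counted, had a UMI in every member with at least 10 macrophage markers. Its counts ran from 2 to 109 per cell in library 1 (median 35) and from 5 to 89 in library 2 (median 29.5). Over all members it reached 2830 and 4246 CPM, against 11.0 and 11.0 CPM in the other barcodes. C1qc stood at 2656 and 3659 CPM and C1qa at 2417 and 3315 CPM. C1qa was the one of the 3 with UMIs in many epithelial barcodes, 25.5% and 32.8% at 13.4 and 36.3 CPM, where C1qb was found in 2.71% and 4.56% at 1.05 and 3.08 CPM. Of the 12 complement genes on the list 9 passed the filter. All 9, against 4.33% of all genes that passed, were at least 4-fold higher. Among them were the receptors C3ar1 (159 and 152 CPM) and C5ar1 (85 and 205 CPM) and the regulator Cfp (103 and 225 CPM). C4b was at 0 in both libraries.

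Markers that adult tissue macrophages share were also common. Mrc1, the mannose receptor, was found in 78.0% and 73.9% of members at 498 and 595 CPM, and the fractalkine receptor gene Cx3cr1 in 90.1% and 78.2% at 563 and 515 CPM. Adgre1, which encodes the F4/80 antigen, was found in 59.3% and 55.8% at 122 and 144 CPM. Trem2, a lipid-sensing receptor that signals through Tyrobp, was found in 82.4% and 83.0% at 402 and 611 CPM. Members of the list were not all common. The efferocytosis receptor gene Timd4 was found in 19.8% and 8.48%, the haptoglobin-hemoglobin receptor gene Cd163 in 9.89% and 5.45%, and the complement receptor gene Vsig4 in 2.20% and 0.606%. The transcription factor gene Maf stood at 1355 and 533 CPM against 76.7 and 34.5 CPM.

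**Figure D2:**
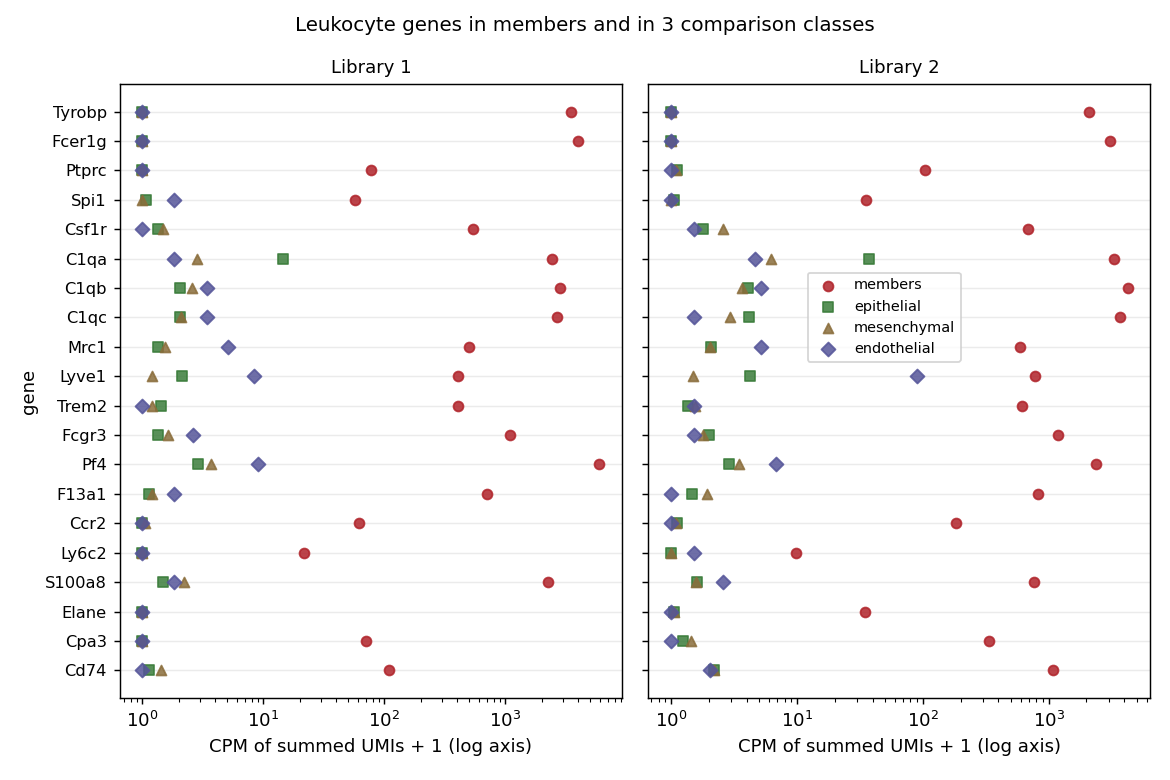
Summed level (CPM + 1, log axis) of 20 leukocyte genes in members and in epithelial, mesenchymal and endothelial barcodes of each library. Members lie to the right of all 3 classes for every gene except Elane in library 1, which is at 0 in all of them, and endothelial barcodes come closest for Lyve1 in library 2, at 89.3 against 775 CPM.

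Of 21 myeloid transcription factors 19 passed the filter and 10 were at least 4-fold higher, against 4.33% of all genes that passed. Spi1, which encodes PU.1, was found in 45.1% and 18.8% of members at 56.3 and 34.5 CPM, against 0.401 and 0.168 CPM in the other barcodes. Irf8, a partner of PU.1, stood at 158 and 211 CPM against 1.87 and 2.31 CPM. Tfec, Ikzf1, Irf5, Runx1, Fli1, Mitf and Bhlhe41 were the others besides Maf. Factors tied to other tissue macrophages were sparse: Spic had 7 and 17 UMIs over all members, and Sall1, known from microglia, had 0 and 1. Gata6 was lower in members, at 2.96 and 5.92 CPM against 49.2 and 41 CPM.

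Receptors listed as partners of the 2 adaptors were present with the downstream kinases. Of 19 rows for genes so listed, among which Itgam recurs, 11 passed the filter. At least 4-fold higher were 10 of these, against 4.33% of all genes that passed. Those 10 include Fcgr2b and Pirb, inhibitory receptors that signal through motifs of their own and are not partners of the adaptors. The Fc receptor gene Fcgr3 had UMIs in 93.4% and 92.1% of members at 1096 and 1180 CPM against 4.10 and 3.52 CPM, and Fcgr1, the high-affinity receptor, in 74.7% and 67.9% at 207 and 254 CPM. The lectin gene Clec4n stood at 236 and 268 CPM and the inhibitory receptor gene Fcgr2b at 136 and 113 CPM. Siglech, a lectin known from plasmacytoid dendritic cells and microglia, was found in 22% and 12.7%. Clec4e and Oscar were at 0. Of 13 signalling genes below the adaptors 9 were at least 4-fold higher, among them Syk (41.5 and 46.4 CPM against 1.98 and 1.70), Lyn, Btk, Vav1 and Plcg2, and also the phosphatases that limit the signal, Ptpn6 (177 and 208 CPM) and Inpp5d (68.2 and 74.0 CPM). The kinase gene Fyn was no higher, at 22.7 and 38.5 CPM against 33.8 and 41.9 CPM.

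Genes for uptake and digestion were listed as well. All 23 lysosome genes passed the filter, and 16 were at least 4-fold higher, against 4.33% of all genes that passed. Together the 23 held 12972 and 17296 CPM in members against 1374 and 2123 CPM elsewhere. The protease gene Ctsb stood at 3190 and 3802 CPM, Ctsd at 1390.2 and 1633 CPM, Lgmn at 977 and 1338 CPM and Ctss at 476 and 962 CPM, the last against 1.78 and 2.28 CPM. Gpnmb, a gene of lipid-laden macrophages, was near 0 at 1.98 and 1.97 CPM. Of 16 scavenger and efferocytosis genes 7 were at least 4-fold higher. Stab1, a scavenger receptor, stood at 714 and 823 CPM, with 78.5 and 104 CPM in endothelial barcodes. Msr1 stood at 64.2 and 74.0 CPM, Cd36 at 99.8 and 117 CPM and the bridging ligand Gas6 at 149 and 243 CPM. Mertk, the receptor of Gas6, was at 22.7 and 33.5 CPM against 6.35 and 7.06 CPM. Marco and Stab2 had at most 2 UMIs in a library.

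Iron and lipid genes followed, beside 4.33% of all genes that passed the filter at least 4-fold higher. Of 10 iron and heme genes 7 were at least 4-fold higher, among them the iron exporter gene Slc40a1 (341 and 351 CPM against 12 and 15 CPM), the transporter gene Slc11a1 (56.3 and 80.9 CPM), the biliverdin reductase gene Blvrb (665 and 786 CPM) and the ferritin gene Ftl1 (18285 and 29227 CPM). Hmox1, which opens the heme ring, stood at 400 and 1201 CPM. In library 2, 3 cells held 54.4% of its UMIs, and without them the level was 563 CPM. Of 12 lipid genes 6 were at least 4-fold higher. Apoe stood at 1419 and 3181 CPM against 22.8 and 19.7 CPM, Plin2 at 336 and 420 CPM and the cholesterol exporter gene Abca1 at 148 and 168 CPM. The fatty acid binding gene Fabp4 was lower, at 2.96 and 0.986 CPM against 36.7 and 33.7 CPM.

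Of 17 chemokine and cytokine genes 12 passed the filter and 11 were at least 4-fold higher, against 4.33% of all genes that passed. Ccl24, which attracts eosinophils, was found in 68.1% and 53.9% of members at 442 and 300 CPM, and Ccl9 in 68.1% and 61.8% at 385 and 467 CPM. The monocyte attractants Ccl2, Ccl7 and Ccl12 stood at 74.1 and 89.7, 36.6 and 67.1, and 128 and 75 CPM. The inflammatory cytokine genes Il1b and Tnf had 2.96 and 7.89 CPM and 0 and 1.97 CPM, and Il10 was at 0. Ccl3 and Ccl4, early response chemokines, differed between the libraries. Ccl3 stood at 331 and 86.8 CPM (45.1% and 18.8% of members) and Ccl4 at 206 and 24.7 CPM. One cell of library 1 held 109 of the 208 Ccl4 UMIs and 1 cell of library 2 held 13 of 25, and without these the levels were 99.8 and 11.9 CPM. In the other barcodes both genes were under 1 CPM in each library. Of the immediate early genes, which rise quickly in handled cells, Jun stood at 40.5 and 20.7 CPM and Egr1 at 16.8 and 11.8 CPM, while Fos stood at 61.3 and 90.7 CPM, the other way round. Their part in the difference was not tested.

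Growth factors went both ways, where 4.33% of all genes that passed the filter were at least 4-fold higher and 8.62% at least 4-fold lower. Of 17 on the list 16 passed the filter, 3 were at least 4-fold higher (Tgfb1, Gas6 and Grn) and 3 at least 4-fold lower (Pdgfa, Pdgfc and Vegfa). Igf1, a growth factor known from tissue macrophages, was found in 79.1% and 61.2% of members at 300 and 313 CPM, and mesenchymal barcodes had 288 and 422 CPM. Of 17 chemokine and cytokine receptors, 16 passed and 13 were at least 4-fold higher, among them Ccr1 (148 and 164 CPM), Csf2rb (71.1 and 117 CPM) and Ifngr1 (148 and 197 CPM). The ligands of Csf1r were not found at a level in members: Csf1 stood at 1.98 and 2.96 CPM and Il34 at 0. Mesenchymal barcodes held Csf1 at 11.4 and 12.6 CPM and the chemokine Cxcl12 at 246 and 362 CPM, against 5.93 and 21.7 CPM of Cxcl12 in members.

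Monocyte genes divided. Of 15 on the list 12 passed the filter, 7 were at least 4-fold higher (Plac8, Clec4a1, Clec4a3, Ccr2, F13a1, Ly6c2 and Ms4a6c) and Vcan was at least 4-fold lower. F13a1, the coagulation factor XIII chain, and Ms4a6c were found in most members, 83.5% and 71.5%, and 89.0% and 84.8%. Those with a narrower link to blood monocytes were found in few. Ccr2, the receptor for Ccl2 (chromosome 9, 124101950 to 124113557, plus strand), was found in 13 (14.3%) and 36 (21.8%) members at 60.3 CPM (46.1 to 77.4) and 181 CPM (156 to 210), and Plac8 in 16.48% and 21.2%. Ly6c2, the antigen of classical monocytes, which has near-identical relatives, was found in 4.40% and 2.42%. Chil3 was at 0 of 91 and 0 of 165 members, which allows shares of up to 3.30% and 1.82% for cells with a UMI, not for cells that express the gene. At least 3 monocyte genes were carried by 89.0% and 73.3% of members, and by 35.2% and 43% after thinning, so the unthinned share moved with depth. Mesenchymal barcodes reached 23.8% and 12.1% unthinned and 1.59% and 2.48% thinned, and Plac8 alone had UMIs in 21.7% and 13.6% of them.

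Ccr2 was placed by the macrophage count. In library 2 it was found in 13 of the 14 members with 3 to 9 macrophage markers, at a median of 6.5 UMIs, in 16 of 134 with 10 or more, and in 7 of 17 with 0 to 2. In library 1 the numbers were 2 of 3, 8 of 79 and 3 of 9. Of those 14 cells of library 2, 13 had Csf1r, 5 had C1qb and 0 had Mrc1 or Lyve1. These genes are among the macrophage markers counted, so their shares follow in part from the grouping.

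Among the members with at least 10 macrophage markers, Lyve1 and Ccr2 lay in different cells. Lyve1, a hyaluronan receptor of lymphatic endothelium and of macrophages along vessels (chromosome 7, 110850607 to 110863239, minus strand), was found in 54 of 79 such cells in library 1 and 89 of 134 in library 2, with medians of 6 and 7 UMIs among the positive cells and highest counts of 33 and 46. Of the Lyve1-positive cells 0 of 54 and 1 of 89 had a Ccr2 UMI, and of the Lyve1-negative cells 8 of 25 and 15 of 45. The count of 0 allows a share of up to 5.56% for cells with a Ccr2 UMI, which is no limit on cells that express it. The one cell with both had 3 UMIs of Lyve1 and 1 of Ccr2. Median depth was 10621 against 9458 UMIs and 5829 against 5388 UMIs. After thinning to 2000 UMIs, which moves some cells to the negative side, Ccr2 was found in 0 of 36 against 4 of 43 and in 0 of 74 against 13 of 60. The split was made on these cells after their values were known, and cells of a library share their source, so it has no test.

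**Figure D3:**
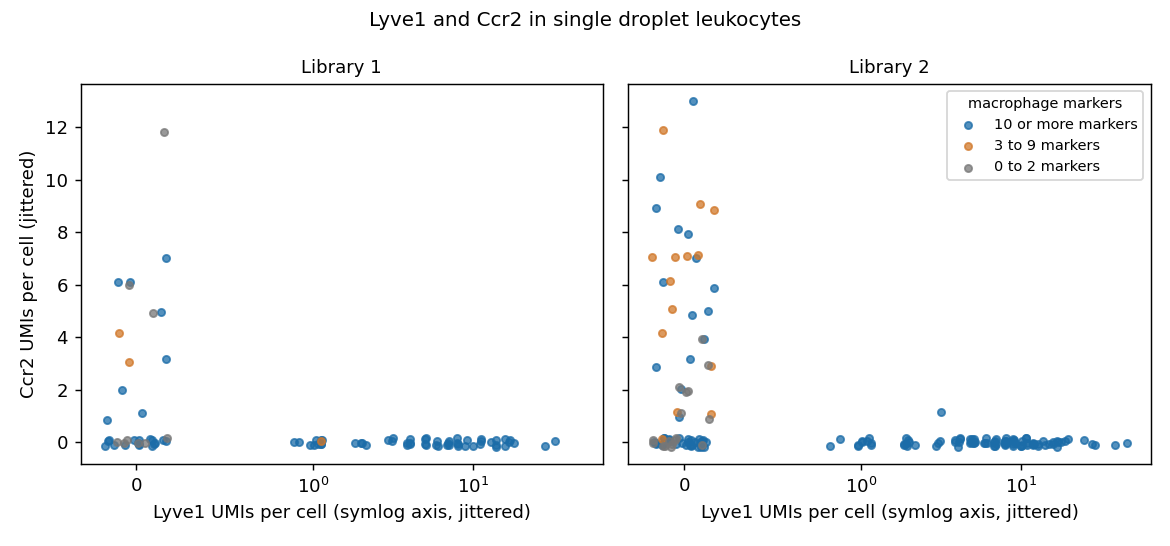
UMIs of Lyve1 (horizontal, symmetric log axis) and Ccr2 (vertical) in each member of library 1 (left) and library 2 (right), jittered, coloured by number of macrophage markers. Cells with Lyve1 lie along the bottom, except 1 cell of library 2, and cells with Ccr2 lie along the left edge.

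Several genes of the fixed lists followed Lyve1 in both libraries, given as log2 ratios of CPM + 10 of Lyve1-positive over Lyve1-negative cells. Folr2, a folate receptor of tissue macrophages, stood at 424 against 75.4 CPM and 564 against 83.6 CPM (2.35 and 2.62), and was found in 44 of 54 against 8 of 25 cells and in 76 of 89 against 15 of 45. Pf4 followed (1.78 and 2.39), then Ccl24 (1.33 and 1.91), F13a1 (1.26 and 1.39) and Mrc1 (1.22 and 1.85). F13a1, which the list counts as a monocyte gene, was thus higher on the side without Ccr2. On the other side stood Plac8 (-4.06 and -4.23), the galectin gene Lgals3 (-3.12 and -3.50), the invariant chain gene Cd74 (-3.18 and -2.44), Cd52 (-2.41 and -2.61) and Ifitm3 (-1.94 and -2.30). Csf1r (0.24 and -0.02), C1qb (0.31 and 0.24) and Apoe (0.07 and 0.03) differed little between the sides. The collagen gene Col3a1, which marks mesenchyme, was also higher in the Lyve1-negative cells, at 113 against 37.7 CPM and 262 against 98.5 CPM. Its part in the other differences was not tested.

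Granulocyte genes were strong in few members. S100a8 and S100a9, the calprotectin chains of neutrophils and some monocytes (chromosome 3, 90668978 to 90670035, plus strand, and 90692632 to 90695721, minus strand), were found in 2 members of library 1 and 3 of library 2. Their sums of 2228 and 769 CPM for S100a8 rest wholly on those cells. In library 1, one cell held 1167 UMIs of S100a8 and 576 of S100a9 with 11 of Ly6c2, and the other 1088 and 281 with 7 of Ly6c2. They held 6 and 7 UMIs of the secondary granule gene Lcn2 and carried 5 and 4 genes of that list. They also carried 8 and 6 of the 15 monocyte genes, with 21 and 14 UMIs of Plac8. Neither had a UMI of Ngp, Camp and Ltf or of the primary granule genes Mpo and Elane, while both had 1 of Fcnb and the first 1 of Prtn3. In library 2, one cell held 333 and 280 UMIs with 372 of Ngp, 174 of Camp, 20 of Ltf and 59 of Lcn2. The next held 418 and 342 with 127 of Ngp, 271 of Camp, 34 of Elane, 78 of Prtn3 and 3 of Mpo, so that genes of both granule types stood in 1 cell. The third held 29 and 1, and carried 11 of the 15 monocyte genes with 6 UMIs of Ccr2. The 2 cells of library 1 and the first 2 of library 2 thus differed in granule genes, with Ngp and Camp in the latter alone.

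Over the lists, 17 secondary granule genes gave 7 past the filter and 4 at least 4-fold higher (S100a8, S100a9, Lcn2 and Csf3r). Of 11 primary granule and precursor genes 4 passed and 2 were higher (Prtn3 and Nkg7). Among all genes that passed, 4.33% were at least 4-fold higher. At least 3 secondary granule genes were carried by 2 members of each library, 2.20% (0.267 to 7.71) and 1.21% (0.147 to 4.31), the same after thinning, and by 0 barcodes of the comparison classes. At least 3 primary granule genes were carried by 0 and 3 members, and by 6 of 517 and 3 of 1118 epithelial barcodes before thinning and 0 after it, against 0 and 3 members after it. Ly6g, Cd177 and Padi4, genes of mature neutrophils, were at 0 in all 256 members. The receptor gene Csf3r was found in 11.0% and 8.48% at 9.88 and 15.8 CPM. Others of the secondary granule list were low, with Mmp8 at 7.90 and 0 CPM, Cxcr2 at 5.93 and 0.986 CPM and Cebpe at 0 and 27.6 CPM. Of the barcodes with at least 10 UMIs of S100a8, members were 2 of 3 and 3 of 5, so the rule left some out. None of the 11 eosinophil and basophil genes passed the filter. In library 2, 1 cell held 83 UMIs of the basophil protease gene Mcpt8, 14 of Prss34, 9 of Cpa3, 7 of Mpo and 3 of Fcer1a.

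Mast cell genes marked a set that was larger in library 2 and takes in the cell with Mcpt8 and Prss34. Of 12 genes 7 passed and 5 were at least 4-fold higher, against 4.33% of all genes that passed. The carboxypeptidase gene Cpa3 (chromosome 3, 20215620 to 20242181, minus strand) stood at 69.2 CPM (53.9 to 87.4) and 335 CPM (301 to 373), the chymase gene Cma1 at 35.6 and 508 CPM and the tryptase gene Tpsb2 at 5.93 and 259 CPM. At least 3 of these genes were carried by 2 members of library 1 (2.20%) and 9 of library 2 (5.45%, 2.52 to 10.1), and by 0 and 9 after thinning. The highest cells held 190 UMIs of Cma1 and 118 of Tpsb2. Mcpt4 and Mrgprb2, genes of mature connective tissue mast cells, were at 0. In library 1, 1 carrier held 39 UMIs of Cpa3 and 35 of Cma1, and the other 31 and 1 with 14 UMIs of Cd3g. The T-cell gene Cd3g was found in 2 of 2 carriers of library 1 and 5 of 9 of library 2, at 1 to 3 UMIs in the latter, while Cd3e was at 0 in all members. Macrophage markers numbered 0 to 3 in these carriers. As many barcodes that carried these genes lay outside the rule as within it, 4 with 2 members in library 1 and 18 with 9 in library 2.

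MHC class II genes gave another set. The invariant chain gene Cd74 stood at 109 CPM (89.3 to 131) and 1079 CPM (1016 to 1145) and H2-Aa at 32.6 and 204 CPM. In library 2, 3 cells with 345, 258 and 152 UMIs held 69% of Cd74, and without them it stood at 339 CPM. In library 1 the 3 highest cells held 70.9%, and without them it stood at 32.6 CPM. At least 3 genes of the list were carried by 4 (4.40%) and 8 (4.85%) members, 2 and 7 after thinning. Of the 7 carriers of library 2 with fewer than 10 macrophage markers, 6 had Ccr2. From the same list Xcr1 and Ciita were at 0 in both libraries, and Flt3 and Clec9a had at most 2 UMIs. Cd209a stood at 0.988 and 13.8 CPM against 0 and 0.021 CPM in the other barcodes. Zbtb46 stood at 3.95 and 2.96 CPM against 4.59 and 5.20 CPM.

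Lymphoid genes were carried by 4 and 5 members. In library 1 these held 1 to 11 UMIs of Cd7 and 0 to 4 of the interleukin-7 receptor gene Il7r. In library 2, 1 of the 5 was a mast cell gene carrier as well, and 1 held the natural killer genes Ncr1 (3 UMIs), Klrb1c (3) and Gzma (4) with 8 of Cd7. Of 20 lymphoid genes 12 passed the filter and 3 were at least 4-fold higher, Il7r, Cd3g and Cd79b. Among all genes that passed, 4.33% were at least 4-fold higher. The B-cell receptor chain gene Cd79b was found in 51.6% and 39.4% of members at 93.9 and 105 CPM, while its partner Cd79a had 0 and 1 UMIs and the B-cell gene Ms4a1 was at 0.

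**Figure D4:**
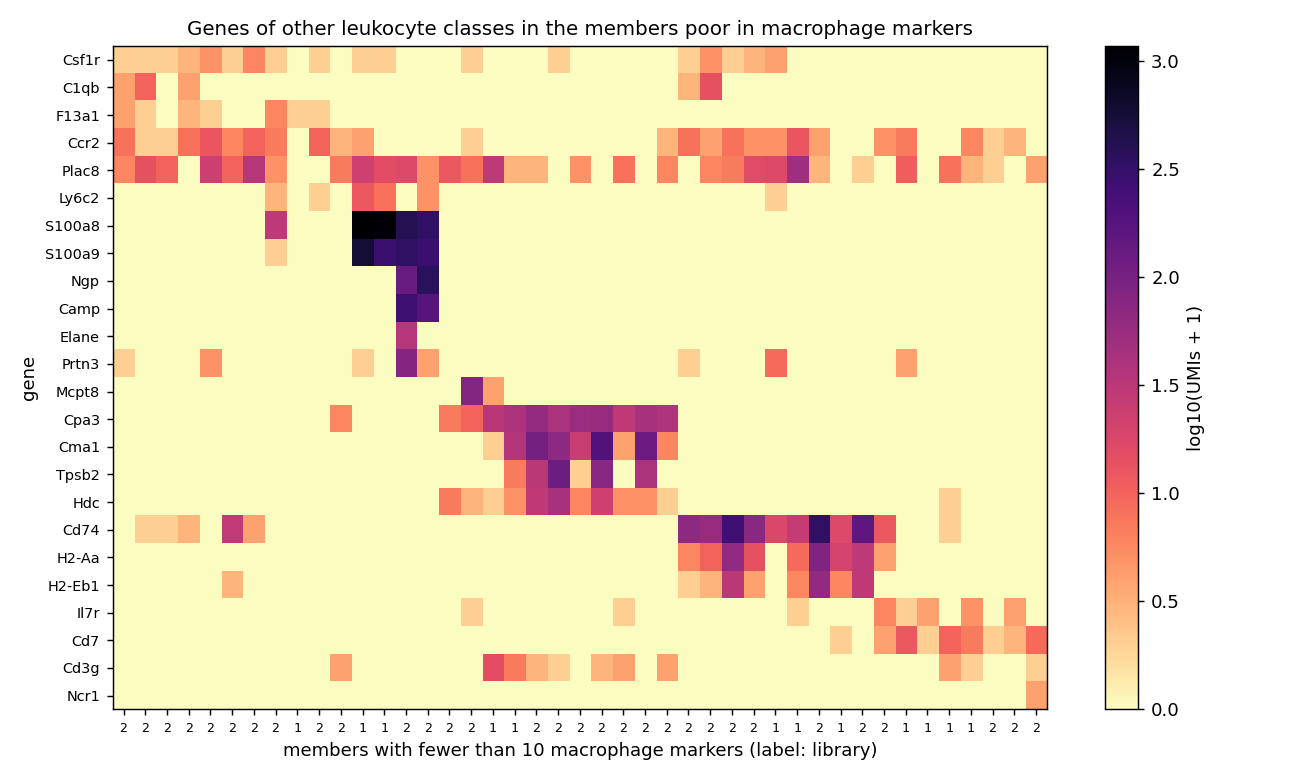
Log10 of UMIs + 1 of 24 genes in the 43 members with fewer than 10 macrophage markers, 1 column per cell, labelled by library. Blocks of S100a8 and S100a9, of Cpa3 and Cma1, of Cd74 and H2-Aa, and of Cd7 lie mostly in separate cells, with Ccr2 and Plac8 across several.

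Platelet and red cell genes did not behave alike. Pf4, a chemokine of platelets that some macrophages also make (chromosome 5, 90772435 to 90773383, plus strand), had the largest fold of the genes at 50 CPM or more in members, ranked by the lower of the libraries, with log2 values of 8.36 and 8.08. It stood at 5973 and 2388 CPM and was found in 84.6% and 71.5%. The platelet genes Gp9, Gp6, Gp1ba and Treml1 were at 0, and 0 members carried 3 genes of that list. Hemoglobin RNA was found in nearly all barcodes of the tissue. Hbb-bs, whose reads may be shared with Hbb-bt, had a UMI in 98.9% and 94.5% of members and in at least 91.3% of each comparison class. Its level in members was 417 CPM in library 1 and 5105 in library 2, where 3 cells held 91.0% of its UMIs and the level without them was 470 CPM.

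Genes of the surrounding tissue were low. All 10 epithelium genes and all 12 endocrine genes were at least 4-fold lower in members, as were 9 of 10 mesenchyme genes and 8 of 10 endothelium genes. Of all 15321 genes that passed the filter, 8.62% were at least 4-fold lower. The rule demanded 0 UMIs of Epcam and Pecam1, so low epithelium, endocrine and endothelium genes follow in part from it. Nothing is read from these counts. Pdx1, Cdh5 and Esam were at 0. Chgb, a granule protein gene of endocrine cells, stood at 2.96 and 1.97 CPM against 181 and 235 CPM, and the acinar gene Ctrb1 at 6.92 and 37.5 CPM against 319 and 1246 CPM. At least 3 mesenchyme genes were carried by 7 (7.69%) and 17 (10.3%) members, and by 13.7% and 25.1% of the deeper epithelial barcodes. After thinning the shares were 4.40% and 6.67% of members and 0.967% and 1.88% of epithelial barcodes. No doublet caller was run. Members with more than 2 times the median UMI count of their library's members numbered 2 and 7.

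Genes of cell division were found in part of the members. At least 3 of 18 G2/M genes were carried by 37 (40.7%) and 55 (33.3%) members, 14.3% and 21.8% after thinning. The thinned shares were 41.6% and 50.4% in epithelial and 23.7% and 21.9% in mesenchymal barcodes. Among members with at least 10 macrophage markers, Mki67 was found in 12 of 79 and 27 of 134 and Top2a in 16 of 79 and 31 of 134. No G2/M or S-phase gene was at least 4-fold higher or lower in both libraries.

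Clustering of each library's members alone gave 4 and 6 sub-clusters, and 2 of these took a name from the marker lists. The leading genes given here that no list holds, such as Ltc4s, Mgl2, Tk1 and Stfa1, were named after their values were seen. In library 2, 47 members (28.5%, 21.7 to 36) formed a macrophage-like sub-cluster led by Ltc4s and Mgl2 with Folr2, Lyve1, Stab1 and Ms4a7. Another 12 (7.27%, 3.81 to 12.4) formed a mast cell-like one led by Cma1, Tpsb2, Hdc and Cpa3, of which 9 carried at least 3 mast cell genes. The rest stayed without a name, among them 37 cells of library 2 led by the division genes Tk1 and Birc5 and 22 cells of library 1 led by Ccl4 and Ccnb2, all of which carried at least 10 macrophage markers. Small sub-clusters of 6 and 18 cells were led by mesenchyme genes such as Dcn in library 1 and Mfap4 with hemoglobin genes in library 2, and 6 and 15 of these cells carried at least 3 mesenchyme genes. In library 1, 24 cells led by Stfa1, Plac8, Cd7 and H2-Aa joined the granulocyte, MHC class II and lymphoid gene carriers in 1 sub-cluster, so sub-clusters were not used to count those cells.

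The same genes were then sought in the 338 Smart-seq2 cells of the same day (333744 to 1648445 gene counts each). Cells with Tyrobp and Fcer1g at 100 CPM or more and 0 reads of Epcam and Pecam1 numbered 12, all among the 104 Ngn3-GFPlow cells. There were 0 of 108 among Ngn3-GFPhigh cells, which allows up to 2.78%, and 0 in all 4 sets of Pdx1-Cre;Rosa-RFP+ cells (6 to 61 cells each), which allows up to 2.38%. These shares are of sorted cells and cannot be set beside the droplet shares. Without the limit on Epcam and Pecam1, an alternative added after the data were seen, 31 of 104 Ngn3-GFPlow cells met the rule, and 0 of either other sort. Of the 19 cells so added all were under 100 CPM of both genes, and 17 carried at least 10 macrophage markers at 100 CPM.

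The 12 cells carried 13 to 18 of the 21 macrophage markers in that table at 100 CPM or more (median 16). Csf1r ran from 1685 to 4971 CPM (median 3012) and C1qb from 967 to 5510 CPM (median 3051), with every cell positive. Pf4 was read in 10 of 12, Lyve1 in 7 and Ccr2 in 2. S100a8 was read in 0 of 12. At 100 CPM or more, no cell carried 3 genes of the granulocyte, mast cell, MHC class II or lymphoid lists. That limit is unlike the single UMI used for droplet carriers. Some genes of those lists did have reads, such as Cd74 in 6 of 12 cells and Csf3r in 10. Cd79b was read in 8 of the 12, as it was in many droplet members. Full-length counts and UMI counts are not compared as levels.

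**Figure D5:**
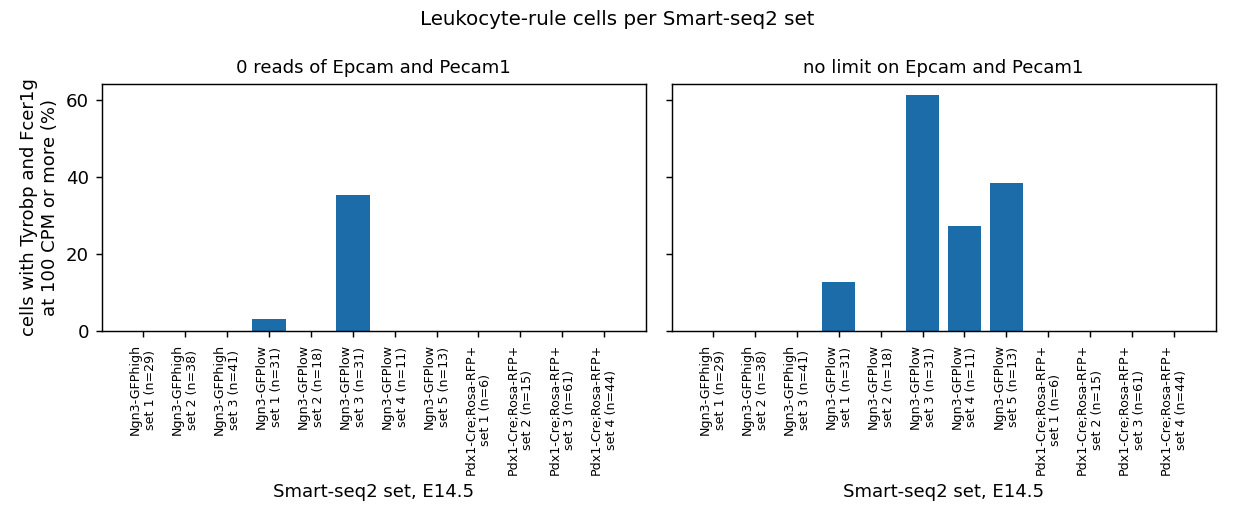
Percent of Smart-seq2 cells per set at E14.5 with Tyrobp and Fcer1g at 100 CPM or more, with 0 reads of Epcam and Pecam1 (left) and without that limit (right), n cells given under each bar. Bars stand above 0 in Ngn3-GFPlow sets alone, at 3.23% and 35.5% in sets 1 and 3 on the left.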

How the data were processed

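Whole E14.5 pancreas was measured in 2 droplet libraries and sorted cells of that day in Smart-seq2 sets. Per the submitters' processing notes, droplet reads were processed with Cell Ranger 2.0.2, and the notes also name TopHat2 2.1.0, HTSeq 0.6.0, Bowtie2 and the build mm10. The annotation and the way cells were called are not given in the sources used here. The deposited values are raw counts, UMIs per gene and barcode for the droplets and reads per gene and cell for Smart-seq2. Barcodes with at least 1000 genes and under 10% mitochondrial counts were kept. UMIs were summed per set of cells, levels are CPM, and folds use CPM + 1. Genes needed 10 UMIs in each library. A carrier is a cell with a UMI of at least 3 genes of a list, or in Smart-seq2 with at least 3 genes at 100 CPM or more. Thinning drew 2000 UMIs per cell with a fixed seed, and all members were deep enough for it. Sub-clusters came from scanpy 1.11.5 (1000 variable genes, 15 components, 10 neighbours, Leiden resolution 0.6), and the condition on naming them was set after the data were seen. No doublet caller was run. An alternative left out members with at least 10 mesenchyme or acinar UMIs.

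No test between groups was run, since the members were chosen by measured values and both libraries form 1 group. Dixon's outlier test was applied to the Smart-seq2 sets. Shares carry 95% exact Clopper-Pearson intervals and sums exact Poisson intervals, which cover counting error only. A count of 0 is given the share that 3 counts would make. Named genes are the rule genes and markers, members of the lists with the highest levels or at 0, the 25 highest and 10 lowest genes by fold (the less extreme library, at least 50 CPM in the higher set), and sub-cluster genes. The members and lists were chosen with earlier results of these data known. The folds and the thinning were tested on simulated data. Alternatives changed the limits on genes, mitochondrial share and rule genes, the pseudocount, the carrier minimum, thinning and the clustering. Python 3.11.15, numpy 2.4.6, pandas 2.3.3, scipy 1.17.1 and matplotlib 3.10.9 were used. Gene positions are from GENCODE vM21 (GRCm38). Some list members are not reported here.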

Additional observations from a re-analysis of the deposited data

Results flagged for a closer look

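In the Smart-seq2 cells of E14.5, 1 of the 5 Ngn3-GFPlow sets lay far from the rest. In set 3, 35.5% of cells (11 of 31) met the leukocyte rule, against 3.23% in set 1 and 0% in the other 3 sets. The gap to the nearest set was 0.909 of the whole range. That is past the 95% limit of Dixon's outlier test, which chance passes in about 1 group in 20, and it is weakened by 3 sets tied at 0% and by the 11 to 31 cells in a set. Without the limit on Epcam and Pecam1 the sets ran from 0% to 61.3%, the gap was 0.372 of the range, and set 3 no longer stood apart.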

How the results depend on the processing

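Of 189 values under other settings, 167 moved by less than their interval, or for counts of genes and ratios by less than 1.5 times, and 22 moved by more. For those 22, 1 of which is Hmox1 in library 2 (given with the other observations), the cause was not tested, beyond what a setting's own construction does to the number of cells or genes. Requiring a Ptprc UMI gave shares of kept barcodes of 1.53% and 1.09%, and in library 2 a mitochondrial limit of 5% gave 3.95%. The 663 genes at least 4-fold higher became 328 with CPM + 10, all of them among the 663, and 774 to 855 when either library was left out. With Ptprc required, carriers in library 2 were 95.9% for macrophage, 81.1% for monocyte, 0% for secondary granule and 0% for lymphoid genes, and in library 1 0% for mast cell genes. Thinning gave 35.2% and 43% for monocyte genes and 0% for mast cell genes in library 1. A minimum of 4 genes gave 70.3% and 46.1% for monocyte genes. A minimum of 2 gave in library 2 91.5% for monocyte, 5.45% for primary granule, 10.3% for MHC class II and 7.27% for lymphoid genes. A limit of 2000 genes per cell gave in library 2 83.1% for monocyte and 1.30% for MHC class II genes. The Smart-seq2 count became 31 without the limit on Epcam and Pecam1. At resolution 0.3 no sub-cluster took the mast cell-like name, and in library 2 none took the macrophage-like name at any other clustering setting tried, while 73 members of library 1 took it at 0.3. With both libraries clustered together, 10 and 12 members were in a cluster named mast cell-like, and 4 and 29 in one named by secondary granule genes. At least 3 mast cell genes were carried by only 2 and 9 members, and at least 3 secondary granule genes by 2 and 2. These joint clusters thus mix other cells in, and their sizes do not count such cells. No paired analysis was possible because no test was run: folds are taken within each library, but on the contrast by which the members were chosen.

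Each minor set rests on 14 cells or fewer a library, some on 1 or none, so its levels and shares are imprecise. Cells that lack Tyrobp or Fcer1g by chance or by type lie outside the rule: of the kept barcodes with at least 10 macrophage markers, 79 of 91 and 134 of 148 were members, and of those carrying lymphoid genes 4 of 18 and 5 of 35. Library 2 was the shallower one per cell, which limits genes at 1 or 2 UMIs most.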

Other observations

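Several values stand outside the comparisons above. Summed over members, Cd74 was lower in library 1 than in library 2 (ratio 0.102), and the other barcodes had a like ratio (0.136). For Hmox1 the members' ratio was 0.334 and that of the other barcodes 1.41. For Ccl4 the ratios were 8.05 and 1.09, the latter at 0.223 and 0.126 CPM, where the added 1 sets it. Maf (2.54 in members and 2.19 elsewhere) and Pf4 (2.501 and 2.07) were higher in library 1 in both sets of barcodes.

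Hmox1 was unevenly spread by Lyve1 among the members with at least 10 macrophage markers. It stood at 528 CPM in the Lyve1-positive against 306 CPM in the Lyve1-negative cells of library 1, and at 936 against 2548 CPM in library 2. Without the 3 members of each library with the most Hmox1 UMIs, a choice made once their values were known, it stood at 355 against 172 CPM and at 679 against 720.3 CPM, so the size of the difference in library 2 rests on those cells.

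Xist, the RNA of the inactive X chromosome, had a UMI in 73 of 91 and 108 of 165 members, and Y-linked genes in 18 of 91 and 27 of 165. Both were found in 5 and 1 members.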
